A study of Mus musculus with 6 samples.

Results

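The genes described here are the named ribosomal protein pseudogenes, chosen by symbol alone: every symbol that stands in all 6 deposited gene tables, starts with Rpl, Rps or Rplp and ends in -ps with or without a number. They numbered 296 of the 53640 symbols shared by the tables. The cytosolic ribosome is built of RNA and many proteins, and the genes of these proteins (Rpl for the large subunit, Rps for the small) are transcribed strongly in nearly every cell, neurons included. Their abundant spliced mRNAs have often been copied back into DNA and inserted elsewhere in mammalian genomes. Such retrocopies usually lack introns and a promoter of their own, and most are taken to be non-coding, yet they keep much of the sequence of the coding gene, called the parent here.

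RNA was sequenced from tissue labelled PFC of mice aged 6 months, with 2 libraries in each of 3 groups, described in the protocols as biological duplicates. The control group was of C57BL/6 x C3H background and received vehicle; the tau group was PS19, a line in which the prion protein (Prnp) promoter drives human tau bearing P301S, and also received vehicle; the treated tau group was PS19 dosed with WDR5-0103, a ligand of WDR5, which is a subunit of histone H3 lysine methyltransferase complexes. Dose, sex and any pooling of animals were not given in the sources used here. Values are read counts per gene, printed as CPM (counts relative to library size, with TMM scaling); total counts ran from 17690811 in tau 2 to 34774643 in treated tau 1.

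Several facts of the libraries bear on what follows. The control and tau tables hold 54429 symbols and those of treated tau hold 54134, so treatment and the kind of gene table cannot be told apart in any comparison with treated tau. Prnp, which the transgene's promoter comes from, gave 1654 CPM for the library labelled control 1, against 876 CPM for control 2. The 4 PS19 libraries held 1472 to 1876 CPM, so by Prnp the library labelled control 1 lies with them, which puts its label in doubt. That reading rests on control 2 as the only lower library. Mapt, the mouse tau gene, did not part PS19 from control, at 576 and 450 CPM in control 1 and 2, 574 and 590 CPM in tau and 459 and 497 CPM in treated tau. Xist, made in female cells, stood at 318, 186 and 235 CPM in control 2, tau 1 and tau 2 and at no more than 2.43 CPM in the other libraries, so treatment and sex cannot be told apart between treated tau and tau either. All 7 cortical excitatory markers had counts in every library, with summed levels of 1330 to 1542 CPM; the 5 olfactory bulb markers summed to 118 CPM in the library labelled control 1 and to 3.69 to 7.51 CPM elsewhere. The 6 oligodendrocyte markers summed to 1352 CPM in control 2 and to 5223 CPM in tau 2. In bulk tissue, fewer cells of a type and less RNA per cell cannot be told apart.

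A pseudogene count depends on how reads were given to one copy or another. The protocols state alignment with TopHat2 to mouse RefSeq mRNAs, and the way reads with several alignments were counted is not given in the sources used here. A read that lies in a stretch shared by a pseudogene and its parent carries no letter that tells them apart. This read sharing applies to every value of a member below, and a count on a pseudogene is therefore not a measure of transcription from its own locus.

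The stretches that follow show how much, or how little, there is for a read to tell the copies apart. Each is 120 bases of coding sequence without gaps, the window of the alignment with the most differences, read 5′ to 3′ on the gene's own strand from GENCODE M21 transcripts on mm10; capitals mark the bases at which the pseudogene and the parent differ. The first set shows a member whose treated tau counts far exceed the others, and the one that fell. Rps15a-ps8 lies at chr4:53791337-53791456 on the minus strand and differs from Rps15a, a small subunit protein gene, at 15 bases of this window.
Rps15a-ps8: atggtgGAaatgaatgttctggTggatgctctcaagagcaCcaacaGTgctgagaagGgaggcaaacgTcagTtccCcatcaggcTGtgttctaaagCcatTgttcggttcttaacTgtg
Rps15a: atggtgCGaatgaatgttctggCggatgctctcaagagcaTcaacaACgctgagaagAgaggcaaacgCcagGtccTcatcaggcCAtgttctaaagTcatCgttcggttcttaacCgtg
Rps4x-ps lies at chr5:3875528-3875647 on the plus strand and differs from Rps4x, an X-linked small subunit protein gene, at 4 bases.
Rps4x-ps: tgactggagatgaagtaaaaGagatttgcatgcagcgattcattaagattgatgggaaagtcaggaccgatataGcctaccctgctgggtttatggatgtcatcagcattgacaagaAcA
Rps4x: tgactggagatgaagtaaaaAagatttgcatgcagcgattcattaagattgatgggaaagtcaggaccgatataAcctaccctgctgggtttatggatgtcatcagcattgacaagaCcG

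The second set shows the 2 members with the highest counts, whose windows hold almost nothing to separate them from their parents. Rpl3-ps1 lies at chrX:13202572-13202691 on the plus strand and differs from Rpl3, a large subunit protein gene, at 1 base.
Rpl3-ps1: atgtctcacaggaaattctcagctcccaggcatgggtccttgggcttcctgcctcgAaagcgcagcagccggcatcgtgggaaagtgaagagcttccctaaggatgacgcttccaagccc
Rpl3: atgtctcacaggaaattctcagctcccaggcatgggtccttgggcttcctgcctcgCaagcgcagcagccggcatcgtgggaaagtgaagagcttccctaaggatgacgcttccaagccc
Rpl14-ps1 lies at chr7:45325268-45325387 on the plus strand and differs from Rpl14, another large subunit protein gene, at 2 bases.
Rpl14-ps1: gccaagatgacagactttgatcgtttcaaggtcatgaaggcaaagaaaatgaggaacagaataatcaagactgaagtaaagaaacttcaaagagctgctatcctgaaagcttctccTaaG
Rpl14: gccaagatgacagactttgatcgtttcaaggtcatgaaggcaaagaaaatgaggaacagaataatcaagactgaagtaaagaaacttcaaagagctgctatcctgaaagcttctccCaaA

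By annotation most members were pseudogenes, as their names say. GENCODE M21 classes 283 of the 296 as processed pseudogenes, 7 as transcribed processed pseudogenes and 6 as protein-coding: Rpl10-ps3, Rpl36-ps4, Rpl36a-ps1, Rpl9-ps1, Rpl9-ps6 and Rps12-ps3. Of all members, 289 have a single exon. They lie on 20 chromosomes, with 35 on X and 0 on Y. Of these loci, 205 overlap no other annotated gene, 26 lie in an intron and 6 in an exon of another gene on the same strand, and 62 overlap a gene on the opposite strand. By symbol they fall into 62 families, of which Rpl31 and Rps12 are the largest with 24 members each, before Rpl21 with 15 and Rpl23a and Rps19 with 14 each.

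The copies are close to their parents. Over the 287 members that aligned to a parent along at least 90% of their length, the median identity was 96.3%, with a range of 68.1% to 100%, and 14 members were 100% identical over the alignment. Of all 296 members, 228 share more than 5% of their 50-base words with another gene. The start codon of the parent is kept as ATG in 238 of the 240 members that align across it, and in 149 members an open frame runs for at least 98% of the parent's codons. Some names go against the sequence: Rpl36a-ps3 shares no 50-base word with Rpl36a and 81.6% of its words with the paralog Rpl36al, with 99.7% identity to the latter. Rpl18-ps1 likewise shares none with Rpl18.

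The number of counts a member held went with its likeness to the parent. Of the 296 members, 87 had no count in any library, 209 had at least 1 and 59 had 10 or more in all 6 libraries; a count of 0 in a library allows up to 3 reads. The 59 members with an identity of 99% or more held 72.4% of the summed CPM of all 296 members, aligned or not. Of these 59, 1 had no count anywhere. Those from 95% to 99%, numbering 108, held 26.5%. The 64 members from 90% to 95% held 0.864%, and of the 56 members below 90%, which held 0.168%, 37 had no count. The plot of level against identity shows this pattern; the points share libraries, and the part of read sharing in the pattern was not tested.

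**Figure D1:**
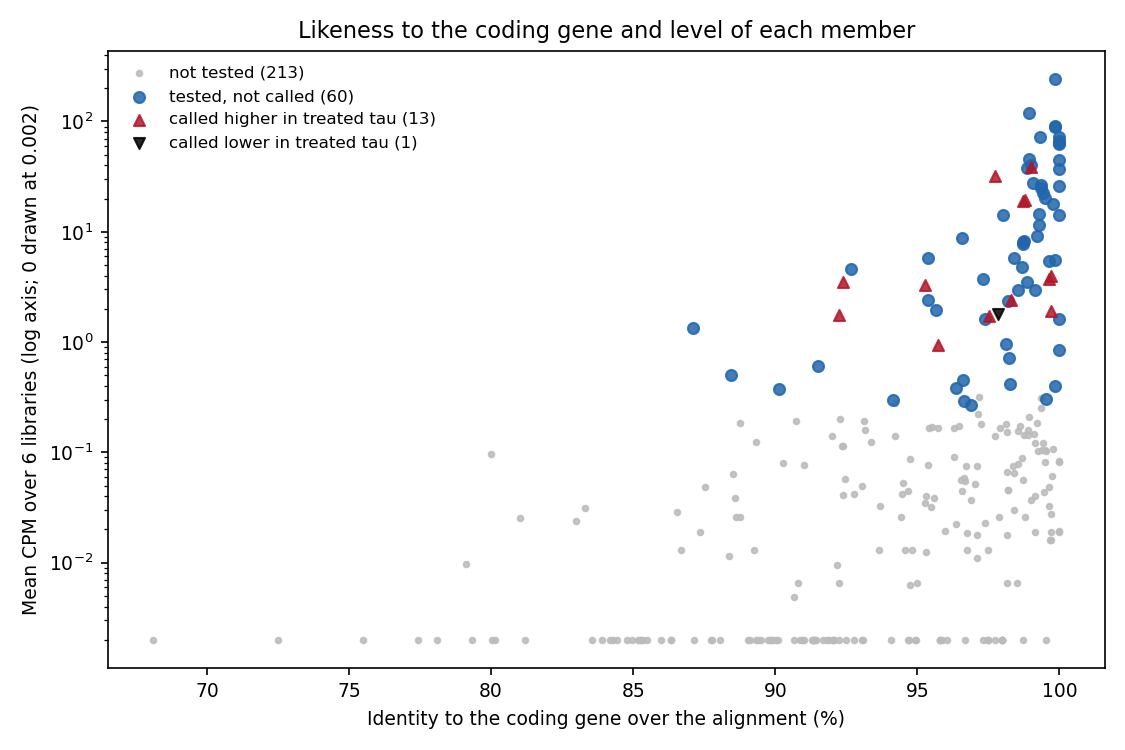
Mean CPM over the 6 libraries (log axis, 0 drawn at 0.002) against identity to the parent in percent for the 287 aligned members, each point being 1 pseudogene and colours giving the call in treated tau against the other 4 libraries. Levels are highest at the right edge, where the 59 members of 99% identity or more lie, and 37 of the 56 members under 90% are drawn at the bottom.

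Together the members took a small part of each library. The libraries labelled control 1 and 2 held 1495 and 1379 CPM of members in all, tau 1 and 2 held 1550.2 and 1506 CPM, and treated tau 1 and 2 held 1659 and 1756 CPM, or 0.139% to 0.170% of all counts. Both treated tau sums lie above the other 4. The 13 members called higher in treated tau (below) made up 84.0 to 100.1 CPM in the control and tau libraries and 205 and 222 CPM in treated tau. As they were picked by that call, this gap is no separate result. All other members made up 1295 to 1450.1 CPM against 1454 and 1534 CPM. The 79 coding ribosomal protein genes went the other way, with sums of 3089 to 3461 CPM over control and tau against 2808 and 2924 CPM for treated tau. Between 139 and 159 members had a count in a library, and both kinds of table lie within that range.

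The 10 members with the highest mean CPM were Rpl3-ps1, Rpl14-ps1, Rpl9-ps6, Rpl19-ps11, Rpl31-ps8, Rpsa-ps10, Rpl38-ps2, Rpl10a-ps1, Rps6-ps4 and Rps25-ps1, from 244 down to 45.6 CPM. Rpl3-ps1, at chrX:13202571-13203780, came to 249 and 227 CPM under the labels control 1 and 2, to 269 and 223 CPM in the tau group and to 246 and 249 CPM with treatment. Its groups overlap. Rpl14-ps1, at chr7:45324965-45325617 on the strand opposite to an intron of the ion channel gene Trpm4, stood at 118 and 113 CPM in the 2 control libraries, 122 and 116 CPM in tau, and 118 and 122 CPM in treated tau, again with overlap. Per kilobase of transcript the order differs: Rpl38-ps2, with the shortest transcript of these at 213 bases, came to 315 CPM per kilobase, Rpl3-ps1 to 201, Rpl31-ps8 to 193, Rpl14-ps1 to 181 and Rpsa-ps10 to 82.3. Rpl31-ps8, Rpl38-ps2, Rpl10a-ps1 and Rps6-ps4 are 100% identical to their parents over the alignment, and each of their 50-base words occurs in the parent.

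**Figure D2:**
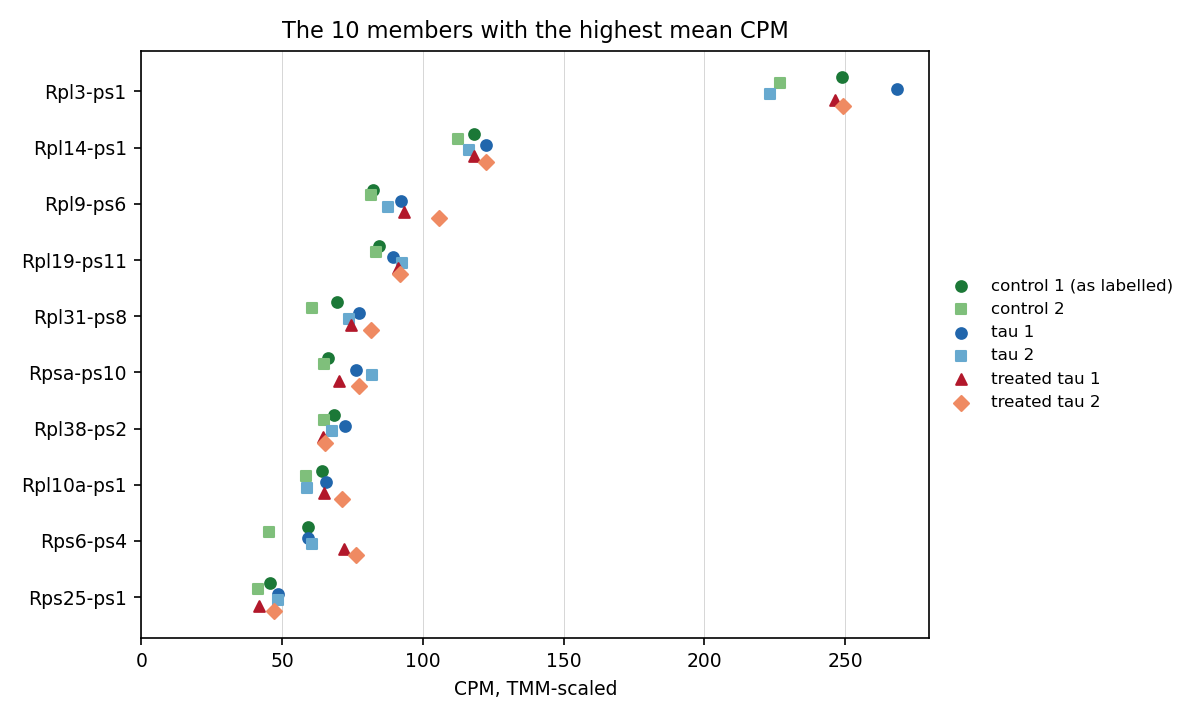
CPM (linear axis from 0) in each of the 6 libraries for the 10 members with the highest mean CPM, 1 row per pseudogene and 1 symbol per library. The libraries lie between 113 and 122 CPM for Rpl14-ps1 and between 45.4 and 76.2 CPM for Rps6-ps4, and no gene of the 10 was called in treated tau against the other 4 libraries.

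In the families of the 2 members at the top of this order, the copy held more counts than the parent. Rpl3 itself came to 5.80 to 7.14 CPM under the labels control 1, control 2 and tau 1, to 23.1 CPM in tau 2 and to 33.1 and 37.6 CPM in treated tau, so that its pseudogenes took 87.2% to 97.7% of the family's counts. Rpl14 stood at 54.2 to 61.7 CPM, and Rpl14-ps1 took 65.7% to 68.1% of the counts of both. In 20 families more than 50% of the counts lay on members in every library, among them Rps10, a small subunit family, with 93.2% to 95.9%. These are shares of counts as assigned, not levels per length.

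The first comparison sets the 2 treated tau libraries against the 4 control and tau libraries, which also sets one kind of gene table against the other. Of the members, 76 passed the filter on low counts and were tested, 133 had counts too low for it and 87 had none. Of the 76, 13 rose and 1 fell at an adjusted p under 0.05 (edgeR's quasi-likelihood test, Benjamini-Hochberg over all 20694 genes tested); among all genes tested 4.54% were called, 3.7% higher and 0.841% lower. The treated tau values lay wholly above the other 4 libraries for 27 tested members and wholly below for 4, where all genes gave 11% and 9.51%. The median log2 fold change was 0.12 over the tested members and -0.01 over all genes tested. Of the 14 called members, 12 also pass the filter in the control and tau libraries alone; 2 do not, Rps15a-ps8 among them, and as these were tested only through the group in which they are high, their calls carry no weight.

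Rps15a-ps8 had few or no counts in 3 libraries and more in the others. This copy, at chr4:53791070-53791456, had 24 counts under the label control 1, 0 in control 2 as in tau 1, 2 in tau 2, and 159 and 131 in treated tau, or 4.65 and 4.88 CPM in the last pair. Both treated tau libraries lie above the other 4, among which the library labelled control 1 is the highest. As a description, its log2 fold change was 4.93 with all libraries, 8.24 without the library labelled control 1 and 4.32 without tau 1, and DESeq2 did not call it (adjusted p = 0.386). It is 92.2% identical to Rps15a and shares 9.47% of its 50-base words with other genes, and its many differences are visible in the stretch printed above.

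Other copies of small subunit genes rose from higher levels. Rps24-ps3, at chrX:79195047-79195448, came to 29.1 and 23.8 CPM under the labels control 1 and 2, to 29.1 and 27.5 CPM in the tau group and to 60.6 and 61.7 CPM with treatment. The groups are far apart against the spread within them, with 27.4 ± 2.54 CPM (SD, n = 4) and 61.2 ± 0.748 CPM (SD, n = 2), and the log2 fold change was 1.16 ± 0.09 (SE, adjusted p = 5.16e-05 by edgeR). It is the 1 called member on X, of 4 tested there. Rps15-ps2, at chr6:58017506-58017943, stood at 22.4 and 24.1 CPM in the 2 control libraries, 28 and 22.6 CPM in tau, and 46.8 and 50.2 CPM in treated tau, a log2 fold change of 0.99 ± 0.10. Rps10-ps1, at chr3:95622278-95622772, stood at 13.3 to 16.3 CPM in the control and tau libraries and at 25.8 and 29.98 CPM in treated tau, a log2 fold change of 0.89 ± 0.11. Neither overlaps between the kinds of table.

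Copies of large subunit genes rose as well. Rpl18-ps1 lies in an intron of Ctla4, an inhibitory receptor gene of T cells, on the same strand. It stood at 0.688 to 1.10 CPM in the control and tau libraries and at 6.02 and 4.96 CPM in treated tau, and the log2 fold change was 2.64 ± 0.25 (adjusted p = 1.30e-04 by edgeR). Rpl35a-ps2 stood at 0.688 to 1.34 CPM against 3.86 and 4.10 CPM, a log2 fold change of 2.18 ± 0.27. Rpl17-ps5 stood at 2.12 to 2.62 CPM against 6.96 and 6.30 CPM (1.52 ± 0.18), and Rpl36a-ps3, the Rpl36al-like copy, at 1.88 to 2.98 CPM against 6.34 and 7.94 CPM (1.55 ± 0.20). All 4 lie above every control and tau library in both treated tau libraries. Each 50-base word of Rpl17-ps5 and Rpl35a-ps2 occurs in another gene.

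Rpsa encodes a small subunit protein also known as a laminin receptor, and Rpsa-ps4 was the called copy of smallest p from its family. Its level was 0.631 and 0.627 CPM under the labels control 1 and 2, 1.41 and 0.573 CPM in tau 1 and 2, and 3.74 and 3.43 CPM with treatment, with a log2 fold change of 2.13 ± 0.30. The remaining called members, named after their values were seen, were Rps15a-ps7 (0.94 ± 0.14), Rpsa-ps11 (1.86 ± 0.37, adjusted p = 0.0156) and Rpl13a-ps1 (0.94 ± 0.21, adjusted p = 0.0306 by edgeR).

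Rps4x-ps was the 1 member called lower. Its level was 2.29 and 2.04 CPM under the labels control 1 and 2, 2.39 and 2.24 CPM in the tau group, and 1.08 and 0.671 CPM with treatment, a log2 fold change of -1.31 ± 0.30 (adjusted p = 0.0389 by edgeR). This call was kept in 4 of 13 other settings, with an adjusted p of up to 0.333, and was lost when any 1 of the 6 libraries was left out.

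**Figure D3:**
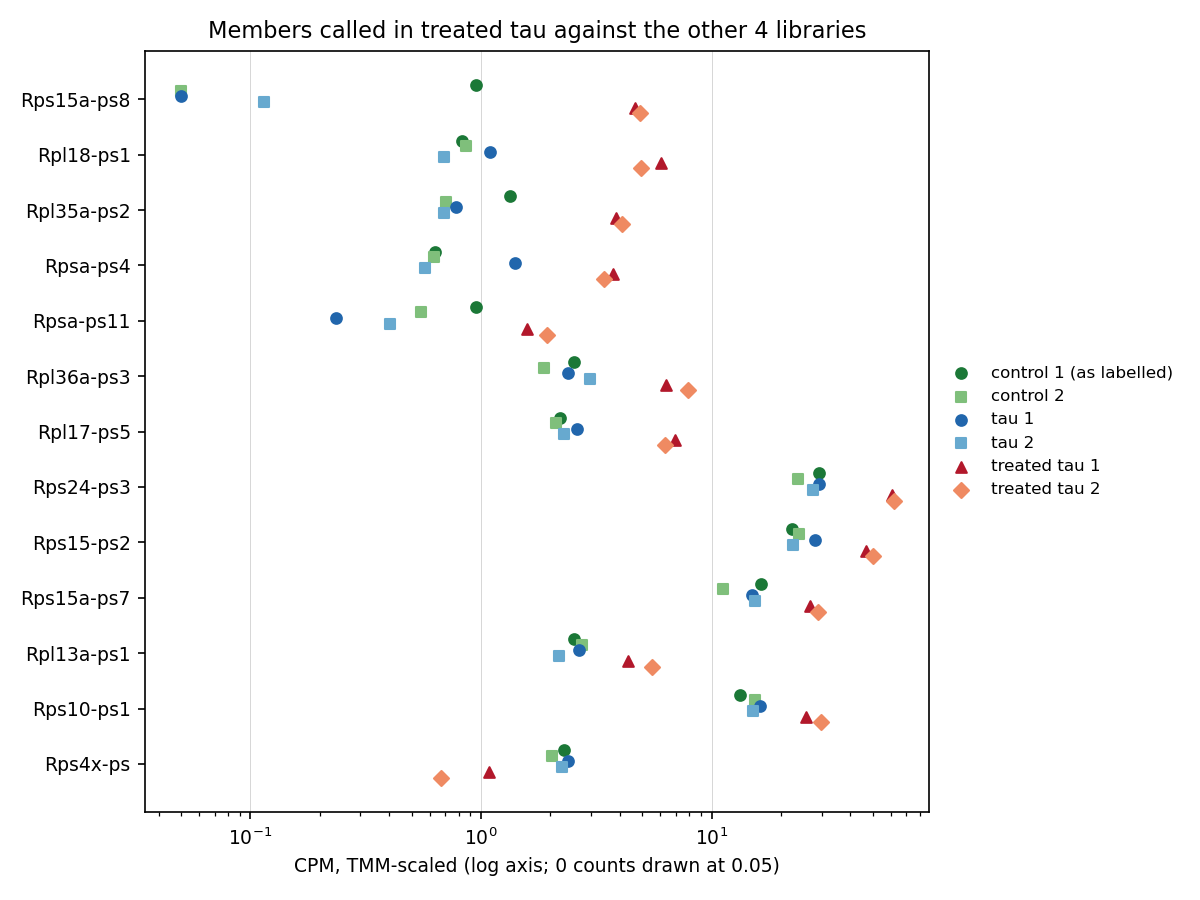
CPM (log axis, 0 counts drawn at 0.05) in each library for 13 of the 14 members called in treated tau against the other 4 libraries, ordered by log2 fold change from 4.93 for Rps15a-ps8 to -1.31 for Rps4x-ps. In every row but the last, both treated tau symbols lie to the right of the control and tau symbols.

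The called members were spread over the genome and over degrees of likeness. The 13 that rose lie on 9 chromosomes, and 9 of them keep an open frame over at least 98% of the parent's codons. So do 38 of the 62 tested members that were not called, so the open frame is not particular to those that rose. A median of 46.8% of their 50-base words occurs in another gene, with a range of 5.95% to 100%, against 73.5% for the tested members that were not called. By identity, 4 of the 32 tested members of 99% or more rose, 7 of 34 from 95% to 99%, 2 of 6 from 90% to 95% and 0 of 2 below 90%. All of these counts of the 13 include the 2 members tested only through treated tau, whose calls carry no weight. Rps15a-ps8 is among the 2 from 90% to 95%, so that share describes and is no result. None of the 10 members with the highest counts was called, with log2 fold changes of -0.08 for Rpl38-ps2 to 0.40 for Rps6-ps4.

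Rpl3-ps2, singled out after its values were seen, shows a library apart within a group. This second Rpl3 copy, at chrX:74170653-74171866, came to 0.434 CPM under the label control 1, to 0.235 CPM each in control 2 and tau 1, to 6.76 CPM in tau 2, and to 7.19 and 6.23 CPM in treated tau. Tau 2 thus lies at the level of the treated tau libraries, as it does in part for Rpl3 itself. The log2 fold change against the other 4 libraries was 2.74 ± 0.71 (adjusted p = 0.0692 by edgeR), short of a call. Rpl3-ps2 was called higher in treated tau against control alone and was not called against tau alone.

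The low counts themselves also differed between the kinds of table. Of the genes with 1 to 10 counts, 65.6% to 67.8% had an even count in the control and tau libraries, and 55.4% and 56.1% in treated tau. Of the members with 1 to 10 counts the shares were 70% to 75% and 48.2% and 53.2%. The part of this difference in the members' calls was not tested.

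No parent of a member that rose was itself called higher. Members called higher came from 11 families by symbol, which include the families of the 2 members whose calls carry no weight. The parent fell in 4 of the 11 families, among them Rps15, Rps15a and Rps24, rose in 0 and was not called in the others. Rps24 stood at 89.5 to 100.1 CPM in the control and tau libraries and at 67.4 and 68.0 CPM in treated tau, a log2 fold change of -0.45 ± 0.07 (adjusted p = 0.00508 by edgeR). Rps15a stood at 72.4 to 91.0 CPM against 54.3 and 59.5 CPM (-0.52 ± 0.09), and Rps15 at 124 to 147 CPM against 100.3 and 110.4 CPM (-0.33 ± 0.08). In each of these 3 genes, treated tau lay below every other library.

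The next values are the shares of a family's counts that lay on pseudogenes, for families with a member called higher. That choice itself favours a higher share in treated tau, so the shares describe the calls and are no separate support. They were higher in both treated tau libraries than in the other 4 for Rps24, Rps15, Rps15a, Rpl13a, Rpl18, Rpl35a and Rpsa. For Rpl17, Rpl36a and Rps10 the groups overlap. For Rps24 this share was 21.0% to 24.6% in the control and tau libraries and 47.4% and 47.6% in treated tau. The Rps15 share was 14.7% to 16.0% against 31.8% and 31.2% and the Rps15a share 22.8% to 34.8% against 50.2% and 49.4%. The parents of the next families were not called. The Rpl35a share was 10.8% to 16.7% against 29.0% and 30.1%, and the Rpl13a share 12.9% to 16.2% against 23.0% and 27.0%. The shifts were smaller for Rpsa, at 51.5% to 54.1% against 60.3% and 60.0%, and for Rpl18, at 41.9% to 53.5% against 58.7% and 55.3%.

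**Figure D4:**
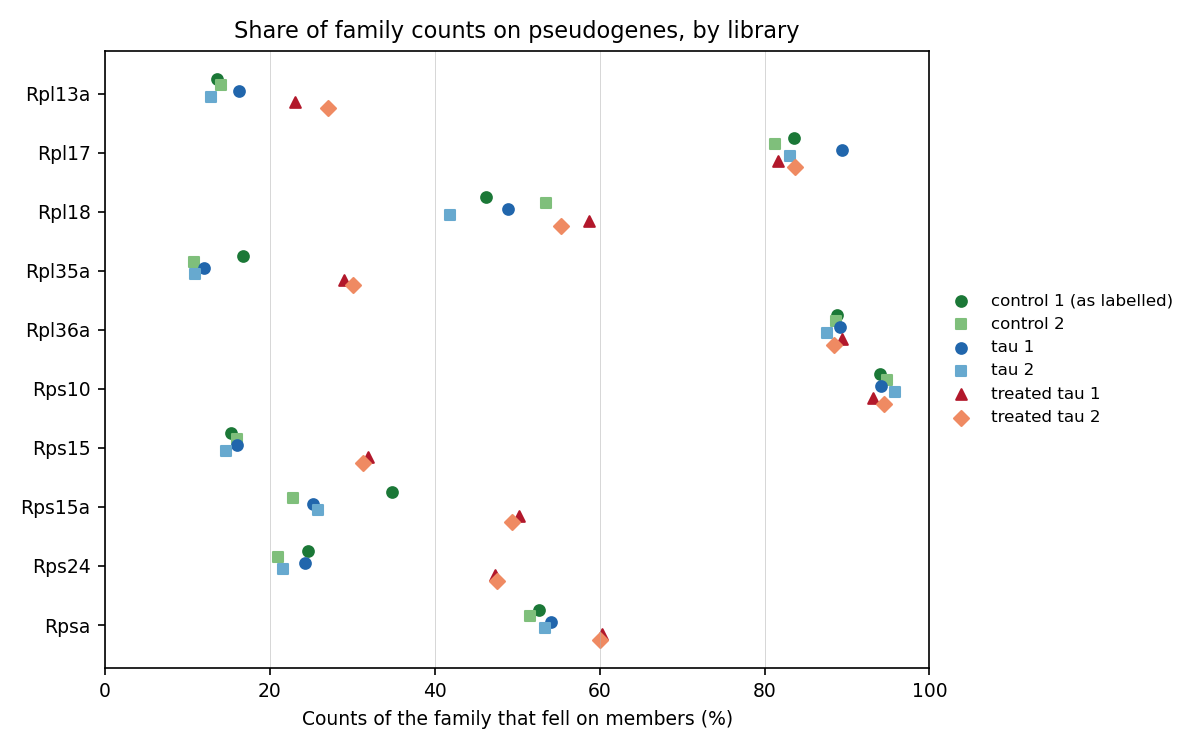
Percent of a family's counts (parent plus members) that lay on members, by library, for 10 of the 11 families with a member called higher. Choosing families by that call itself favours a higher share in treated tau. Treated tau symbols lie to the right of the others for Rps24 (47.4% and 47.6% against 21.0% to 24.6%), while Rps10 lies above 93% in every library.

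A sum over a parent and all of its members does not depend on how reads were split among them, although reads given to other copies or dropped stay outside it. Summed in this way, Rps24 gave a log2 fold change of 0.10 ± 0.07 (adjusted p = 0.588 by edgeR), Rps15a of 0.02 ± 0.08 (0.957), Rps15 of -0.03 ± 0.08 (0.921) and Rpsa of -0.05 ± 0.07 (0.802). In these families at least 1 member rose and the sum was not called. Not called either, but further from 0, were the sums by symbol of Rpl18 at 0.36 ± 0.10 (adjusted p = 0.0972 by edgeR), Rpl13a at 0.14 ± 0.10 (0.632) and Rpl36a at 0.14 ± 0.08 (0.479). Every sum by symbol includes the called members by which its family was chosen. Of the 11 families, 3 rose as sums: Rpl17 by 0.61 ± 0.09, Rpl35a by 0.59 ± 0.12 and Rps10 by 0.42 ± 0.07 on the log2 scale. With copies assigned by sequence, a grouping chosen after seeing the data, the Rpl36al sum rose by 0.95 ± 0.16 (adjusted p = 0.00554 by edgeR), while Rpl36al itself gave 0.09 ± 0.21.

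**Figure D5:**
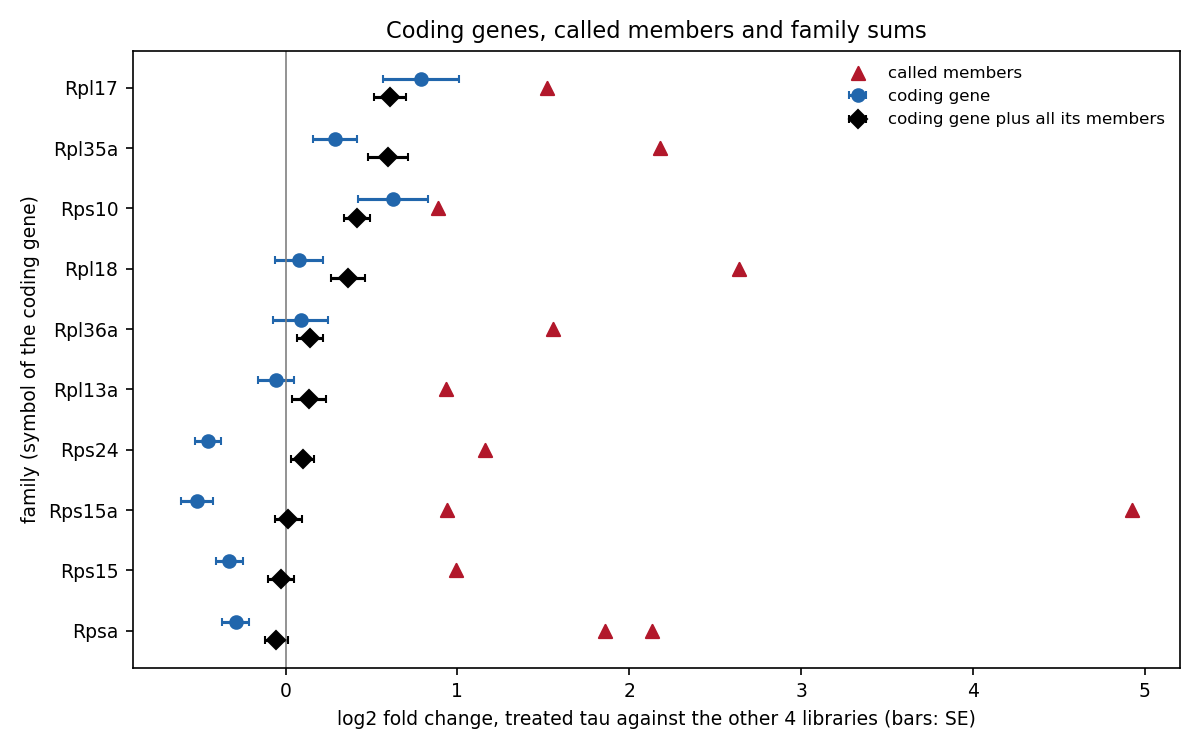
Log2 fold change of treated tau against the other 4 libraries for 10 of the 11 families with a member called higher: triangles are the called members, circles the parent and diamonds the sum of parent and all members, with SE as bars. Triangles reach 4.93 for Rps15a-ps8, circles run down to -0.52 for Rps15a, and the Rps24, Rps15a, Rps15 and Rpsa diamonds lie between -0.05 and 0.10.

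At the median over families, sums had smaller fold changes than parents. Of 61 families tested both ways, 22 parents were called (9 higher, 13 lower), and 12 of these also had a called sum; 3 more sums were called without their parent. In all 15 sums were called, 8 higher and 7 lower, where 4.43% of all genes and sums in that fit were called, 3.62% higher and 0.805% lower. The median absolute log2 fold change was 0.35 over parents and 0.20 over sums. The number of called sums was 9 without treated tau 1 and 7 without treated tau 2.

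Other gene lists stand beside these counts for treated tau against the other 4 libraries. Of the 79 coding ribosomal protein genes, 9 rose and 18 fell, with a median log2 fold change of -0.06. Of 1237 other named pseudogenes, 187 were tested, of which 69 rose and 2 fell, with a median of 0.48. Of 77 tested genes for proteins of the mitochondrial ribosome, 0 rose and 2 fell, with a median of 0.00.

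Against tau alone, 12 members rose and 0 fell, where 3.76% of all genes were called, 3.09% higher and 0.677% lower. WDR5-0103, sex by Xist and the kind of gene table cannot be told apart in this comparison. Rps24-ps3 gave a log2 fold change of 1.11 ± 0.11, Rps15-ps2 0.93 ± 0.12 and Rpl18-ps1 2.57 ± 0.31. The count was 5 without tau 1 and 7 without treated tau 2. Against control, 13 members rose and 0 fell, where 4.22% of all genes were called, 3.32% higher and 0.899% lower. Here Rps24-ps3 gave 1.21 ± 0.11, Rps15-ps2 1.06 ± 0.12 and Rpl18-ps1 2.70 ± 0.30. Rps6-ps4, one of the 10 most abundant members, came to 59.0 and 45.4 CPM under the labels control 1 and 2 and to 72.0 and 76.2 CPM with treatment, a log2 fold change of 0.50 ± 0.12 (adjusted p = 0.0494 by edgeR). These comparisons share the treated tau libraries.

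Tau against control is the comparison within 1 kind of table, but its control group limits what it says of the transgene. The library labelled control 1 had Prnp at 1654 CPM, against 1684 and 1472 CPM in tau. Its Xist level was 0.197 CPM against 186 and 235 CPM, and its olfactory bulb markers summed to 118 CPM against 7.51 and 5.39 CPM. With this library among the 2 controls, an absence of calls does not show that the transgene changed nothing. No member was called by edgeR, by DESeq2 or by limma-voom. By edgeR 0% of all genes were called; DESeq2 called 0.395% of the 12670 genes to which it gave an adjusted p. At an unadjusted p under 0.05, edgeR had 4 members higher and 2 lower, where 9.95% of all genes passed, 4.31% higher and 5.64% lower. The 3 members of smallest p were Rps2-ps11, Rpsa-ps10 and Rps18-ps1. Rps2-ps11 had 19 and 16 counts under the labels control 1 and 2 but 4 and 0 in the tau group, a log2 fold change of -2.83 ± 0.83 (adjusted p = 0.441 by edgeR). Rpsa-ps10 stood at 66.4 and 64.8 CPM in the 2 control libraries and at 76.2 and 81.8 CPM in tau, a log2 fold change of 0.27 ± 0.09 (adjusted p = 0.443). Rps18-ps1 had 8 and 0 counts in control and 26 and 12 in tau (2.45 ± 0.92, adjusted p = 0.452). Without control 2, 1 member was called: Rps15a-ps6 at -1.48 ± 0.26 (adjusted p = 0.0491 by edgeR), which with all libraries gave -0.94 ± 0.43 (adjusted p = 0.505) and came to 11.4 and 4.23 CPM under the labels control 1 and 2, against 4.89 and 2.98 CPM in tau.

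No member was at 0 in every library of one kind of table and at 10 or more counts in every library of the other. A further 2 symbols of this form stand in the control and tau tables and not in the others: Rpl10a-ps3, at 0 in all 4, and Rpl19-ps6, with 13, 15, 20 and 7 counts under the labels control 1, control 2, tau 1 and tau 2.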

How the data were processed

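The deposited values are raw read counts per gene symbol, 1 table per library, not normalized; the tables are the authors' own. Per the labels' protocols, ribosomal RNA was depleted from total RNA, stranded libraries were sequenced, Cutadapt removed adapters and TopHat2 aligned the reads. The submitters' processing notes name SAMtools, featureCounts, edgeR and mm10; versions, strand setting and handling of multiply aligned reads were not given in the sources used here. File headers number 4 of the libraries otherwise than the sample titles, which are used here, and 0 rows named no gene.

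Of the 53640 shared symbols, those passing filterByExpr (minimum count 10) were normalized by TMM and modelled over all 6 libraries and 3 groups with no covariate (3 residual degrees of freedom) by edgeR 4.0.16's quasi-likelihood test, two-sided, in R 4.3.3. Treated tau was set against the mean of control and tau, against tau and against control, and tau against control. SE is the absolute log2 fold change divided by the square root of F. Family sums replaced a parent and its members by 1 row. Alternatives were DESeq2 1.42.0 (test and size factors), limma-voom (limma 3.58.1), other filters and scalings, a replicate block and each library left out. The fit was tested on simulated data.

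Identity came from local alignment (Biopython 1.88, both orientations) of GENCODE M21 transcripts, and shared sequence from exact 50-base words on both strands. Total counts limit precision; the limit that 0 counts allow covers counting error only. Members and lists were chosen with earlier results of these data known. Named members are the 10 of smallest p in each direction among those called with no overlap, the 10 of highest mean CPM, the 3 of smallest p in tau against control and their parents; some members and a parent are counted but not reported here by name.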

Additional observations from a re-analysis of the deposited data

How the results depend on the processing

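In treated tau against the control and tau libraries, 14 members were called, and 11 to 14 under the alternatives. Against control alone the count was 13, and 10 to 13. Against tau alone it was 12; with 1 library left out it ran from 5 (without tau 1) to 13, with 7 without treated tau 2. In tau against control it was 0, and 0 to 1 with 1 library left out, the 1 arising without control 2. The 15 called family sums became 7 to 16 with 1 library left out, and the cause of these moves was not tested. Where a library is left out, the lone library of its group is assumed to vary like the others. Of the 10 members of smallest p that rose, 9 kept their call in all 13 other settings, and Rps15a-ps8 lost it with DESeq2. These 10 include the 2 members tested only through treated tau, whose calls carry no weight. Rps6-ps4 was called with DESeq2 (adjusted p = 0.0158) and without the library labelled control 1 (edgeR, adjusted p = 0.00566). Log2 fold changes of members not called with all libraries changed sign when 1 library was left out: Rpl3-ps1 ran from -0.024 (without tau 2) to 0.11, Rps25-ps1 from -0.13 to 0.039 (without treated tau 1), Rpsa-ps10 from -0.028 (without treated tau 2) to 0.11, and Rps18-ps1 from -3.16 to 2.03 (without the library labelled control 1), with 0.23 without treated tau 2.

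The replicate numbers in the titles gave no sign of pairing: deviations of same-numbered libraries from their group means had correlations of 0.010, -0.0080 and 0.073 across genes. With the replicate number as a block, 12 members were called in treated tau against the other libraries, 12 against tau, 11 against control and 0 in tau against control, and 14 family sums.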
